A study of Rattus norvegicus with 16 samples.

Results

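High and low responder rats were compared here within the dorsal raphe, from the small RNA libraries labelled high responder dorsal raphe (4 libraries) and low responder dorsal raphe (4 libraries), which are 8 of the 16 libraries of the study. Both groups are brain tissue of rats 60 days old, and no treatment or genetic change is named for either. The other 8 libraries came from the amygdala of the same 2 lines. They help set the filter on low counts, the scaling of the libraries and the spread in the statistical model. They also enter a test of whether the line difference depends on the region. Whether each library is a different rat, and whether the same rats gave both regions, is not in the labels. The spread behind a p-value may thus be technical, and the model treats all 16 libraries as independent.

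High and low responders are lines bred for how much they move about in an unfamiliar place, and they differ in measures of anxiety and stress coping. The dorsal raphe is the midbrain nucleus that supplies much of the forebrain with serotonin. A microRNA (miRNA) is a short RNA, cut from a hairpin precursor, that lowers the output of messenger RNAs it pairs with. Pairing rests mostly on the seed, bases 2 to 8 from the 5′ end, and miRNAs with the same seed are grouped as a family. Each hairpin can give a mature miRNA from its 5′ arm (5p) and another from its 3′ arm (3p). Tissue holds many cell types, so fewer cells of a type and less of a miRNA per cell cannot be told apart in these libraries.

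The sequences below are those of the miRNAs that the line comparison turns on, from RefSeq on the rat build GRCr8, 5′ to 3′, with the seed in capitals. By name, 644 of the 722 listed miRNAs had an entry. The build used for the deposited counts is not given in the sources used here. The first set was lower in high responders at an unadjusted p under 0.05, both with all 8 libraries and without low responder library 4.
miR-92a-3p: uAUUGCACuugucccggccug
miR-543-3p: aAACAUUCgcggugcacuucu
miR-6321: uACUGCAGugaguucuaugaagc
miR-770-5p: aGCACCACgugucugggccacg
The next 2, from 1 cluster and with the same seed, were higher in high responders on average.
miR-497-5p: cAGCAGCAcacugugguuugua
miR-195-5p: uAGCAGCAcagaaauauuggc
The following 4 were far above their group in low responder library 4. miR-99b-5p and miR-100-5p share a seed, and that of miR-10a-5p differs.
miR-99b-5p: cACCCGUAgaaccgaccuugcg
miR-100-5p: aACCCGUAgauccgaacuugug
miR-10a-5p: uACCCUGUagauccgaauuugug
miR-485-5p: aGAGGCUGgccgugaugaauuc
The last pair shares a seed and turned from lower to higher in high responders when that library was left out.
miR-101a-3p: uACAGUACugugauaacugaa
miR-101b-3p: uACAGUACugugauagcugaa

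In GRCr8, miR-543-3p lies at chr6:134552453-134552473 and miR-770-5p at chr6:134298094-134298115, both on the plus strand. They belong to the imprinted miRNA domain near Dlk1 and Dio3, and miR-770-5p lies within the span of Meg3, a long noncoding RNA gene of that domain. miR-485-5p, at chr6:134571076-134571097 on the plus strand, belongs to it as well. miR-6321, at chr14:19743454-19743476 on the minus strand, lies within the span of Rufy3. miR-100-5p, at chr8:50798307-50798328 on the plus strand, and miR-125b-1-3p, at chr8:50850090-50850111 on the same strand, both lie within the span of Mir100hgl. miR-497-5p (chr10:55450172-55450193) and miR-195-5p (chr10:55450509-55450529) are a pair on the plus strand of chromosome 10. miR-101b-3p, at chr1:236273982-236274002 on the plus strand, lies within the span of Rcl1.

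The dorsal raphe libraries held 2096188 to 5917144 counts. Depth did not separate the lines, since the mean total was 4322042 ± 1544381 in high and 4321792 ± 1650473 in low responders (SD, n = 4 each; exact two-sided permutation test on log2 totals, p = 0.971, where the smallest possible is 0.0286). Levels are given as counts per 1000000 (CPM) scaled by the trimmed mean of M values (TMM). The detection floor of 3 counts was 0.507 to 1.43 CPM in these libraries before scaling, and it covers counting error only. Of the 722 miRNAs, 639 passed the filter on low counts and were tested. No pair of dorsal raphe libraries was a copy, since chi-square per degree of freedom was at least 50.5 over the 28 pairs.

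Low responder library 4 stood apart from all the other dorsal raphe libraries. It was the shallowest, with 2096188 counts, and its TMM factor of 0.596 raises its scaled levels. Scaled levels of all 722 miRNAs summed to 789479 to 994933 CPM in high responders and 923818 to 1002702 in low responders 1 to 3. In low responder library 4 they summed to 1678980 CPM. The root mean square distance of its log2 levels from the mean of its group mates was 1.37, and that of every other dorsal raphe library was 0.380 to 0.83. In it 313 of 639 miRNAs (49.0%) lay more than 2-fold from the mean of its mates, 182 higher and 131 lower, whereas the others had 21 to 122 such miRNAs. The next shallowest, high responder library 1 with 2419326 counts, had 122. With no scaling beyond the library totals the split in low responder library 4 became 80 higher and 252 lower, so the direction of its smaller deviations depends on the scaling.

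The miRNAs furthest above their mates in low responder library 4 included miR-10b-5p and miR-10a-5p, encoded within Hox clusters, and members of the miR-99 and miR-100 family. Of the other 4 tested miRNAs from Hox clusters none was over 2-fold above its mates, and miR-196a-3p had 0 counts there against 15, 16 and 14 in low responders 1 to 3. miR-10b-5p, encoded among the Hoxd genes, measured 240.1, 272 and 262 CPM in low responders 1 to 3 and 2610.4 in library 4, a 10.1-fold excess over the mean of its mates on the log2 scale. High responders 1 to 4 had 253, 249.6, 316 and 247 CPM. miR-10a-5p, from the Hoxb genes, went from 171, 146 and 150.3 CPM in libraries 1 to 3 to 1314 in library 4. miR-100-5p stood at 10997, 10479 and 12250.4 CPM in libraries 1 to 3 and at 87757 in library 4, and miR-99b-5p at 3948, 3803 and 3643 and 33617. In contrast miR-99a-5p, of the same family, was at 33859 CPM in library 4, inside the range of 29422, 30863 and 38576 in its mates. miR-151-3p, miR-183-5p of the sensory cluster, miR-485-5p and miR-379-5p were also high in that library, by 9.53-, 9.36-, 9.39- and 6.94-fold. These 8 were picked for their distance in this library, and all stayed more than 2-fold above its mates with library totals alone.

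Other miRNAs were depleted in the same library. miR-369-3p, of the imprinted domain, had 1793, 1836 and 1300.1 CPM in low responders 1 to 3 and 134 in library 4, 12.1-fold lower. miR-107-3p, encoded in the gene of the metabolic enzyme Pank1, had 736, 818 and 695 CPM against 111. miR-17-5p, the founding member of the miR-17-92 cluster, had 233, 306 and 231 CPM against 40.8. The remaining 5 of the 8 lowest, miR-339-5p, miR-539-3p, miR-30b-5p, miR-335 and miR-194-5p, were 5.04- to 5.78-fold lower.

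The ratio between the arms of a hairpin, a measure that no scaling can alter, shifted in low responder library 4. Of 222 hairpins with both arms tested, 129 (58.1%) had a 5p to 3p ratio more than 2-fold from that of its mates, against 18 to 54 in the remaining dorsal raphe libraries. In 106 hairpins (47.7%) the arms deviated in opposite directions on the TMM scale, and in 29 of these one arm was over 2-fold up and the other over 2-fold down. miR-379-5p, for example, was 2.79 above its mates on the log2 scale and miR-379-3p -2.12. The neural miR-9a-5p was 1.07 and its other arm, miR-9a-3p, -2.00. By base composition, the median deviation was -0.31 for 116 miRNAs with at most 40% G and C, 0.21 for 249 with over 40 to 50% and 0.17 for 204 above that. The medians of these classes in the remaining dorsal raphe libraries lay between -0.20 and 0.23. By length, the median deviation was 0.83 for 26 miRNAs of 24 bases or more, and -0.35 to 0.19 in the remaining libraries. Of these 26, 12 were over 2-fold up and 1 over 2-fold down. In the shorter classes the median of library 4 was -0.16 to 0.34. For the 54 miRNAs of 20 bases or less, the medians of the remaining libraries ran from -0.42 to 0.62.

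**Figure D1:**
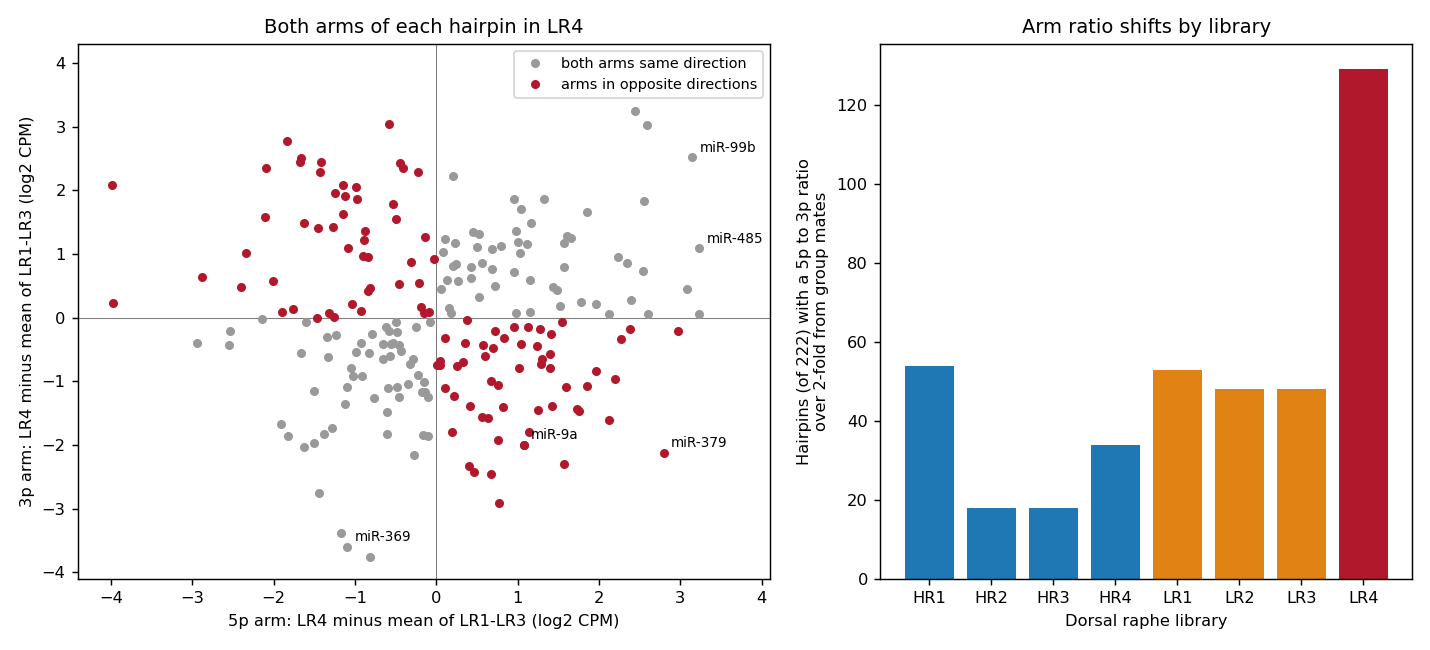
Low responder dorsal raphe library 4 (LR4) against its 3 group mates (LR1 to LR3). Left, the deviation of the 3p arm against that of the 5p arm for 222 hairpins (log2 CPM), with the 106 whose arms moved in opposite directions in red. Right, the number of hairpins whose 5p to 3p ratio is more than 2-fold from the mean of the group mates, for high responders (HR, blue), low responders 1 to 3 (orange) and LR4 (red, 129 hairpins).

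Some amygdala libraries also had many shifted hairpins. High responder amygdala library 1, the shallowest of the study with 1741167 counts, had 129 of 222, and high responder amygdala library 4 had 104. Across the 639 miRNAs, the Spearman correlation of a library's deviations from its mates with those of low responder library 4 was 0.602 for the former and -0.575 for the latter, given as a description only. It was 0.519 for low responder amygdala library 1, 0.427 for high responder amygdala library 2 and -0.560 to -0.0362 for the other 4 amygdala libraries. The deviations within a group cancel out for each miRNA, so positive values in some of its libraries go with negative ones in others by construction. Neither the origin of the rats nor a batch is in the labels, and a part for depth, handling or dissection was not tested. Line differences in the dorsal raphe are therefore given below with all 8 libraries and, for the miRNAs and lists described, without low responder library 4.

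No miRNA differed between the lines in the dorsal raphe at an adjusted p of 0.05, among 639 tested with edgeR's quasi-likelihood test (0% called, lowest adjusted p = 0.358). At an unadjusted p under 0.05 there were 70 (11%), of which 66 were lower (10.3%) and 4 higher (0.626%) in high responders. With library totals alone in place of TMM the split was 17 lower and 5 higher, and the median of all miRNAs moved up by 0.20 on the log2 scale. DESeq2 called 0 and had 54 at an unadjusted p under 0.05. In 63 of the 66 lower miRNAs, low responder library 4 held the highest level of all 8 libraries.

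Without that library again no miRNA passed, among 663 tested (lowest adjusted p = 0.996), and 23 (3.47%) had an unadjusted p under 0.05, 17 higher (2.56%) and 6 lower (0.905%). Of the 70 miRNAs, 10 kept an unadjusted p under 0.05, while 53 shrank to at most 50% of their log2 difference or reversed, 10 of them reversing. The median log2 difference of all miRNAs was -0.06 with the library and 0.09 without it. These values come from the fit over both regions, whose spread is partly that of the amygdala libraries. In a fit of the dorsal raphe alone, leaving the library out raised the count at an unadjusted p under 0.05 instead. Lower miRNAs then slightly outnumbered higher ones, as given with the processing alternatives. The fall from 70 to 23 and the excess of higher miRNAs thus hold for the fit over both regions only.

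**Figure D2:**
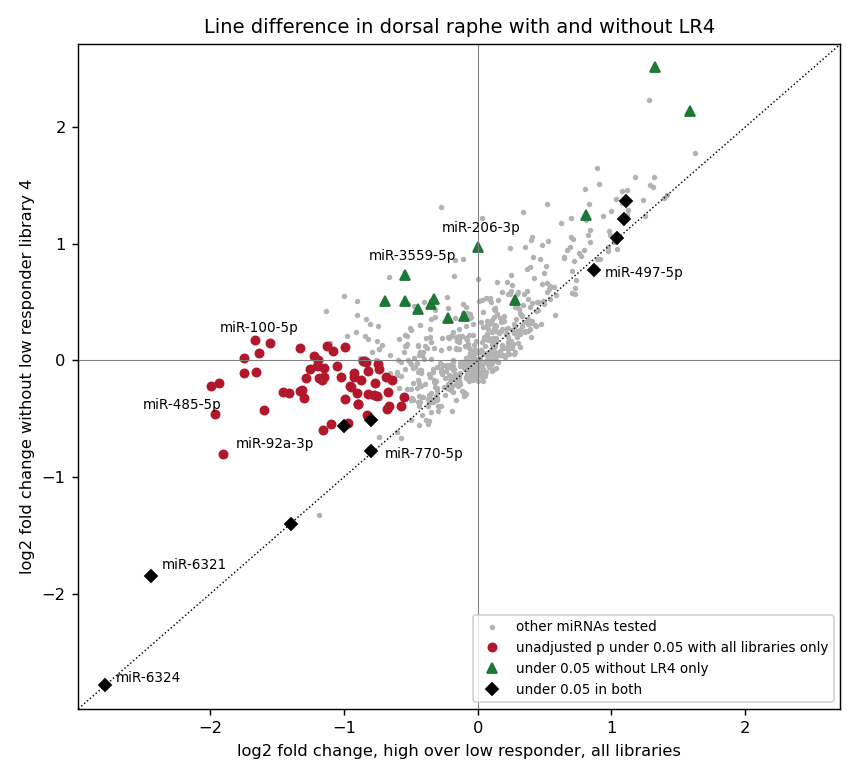
The log2 difference of each tested miRNA, high over low responders, with all 8 dorsal raphe libraries (horizontal axis) and without low responder library 4 (LR4, vertical axis). The dotted line marks equal values. The miRNAs at an unadjusted p under 0.05 with all libraries only (red circles, 60) lie between -0.80 and 0.18 on the vertical axis, 56 of them within 0.5 of 0, and the 10 black diamonds keep their p in both.

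Of the 66 lower miRNAs, 6 had an unadjusted p under 0.05 also without low responder library 4. They were miR-92a-3p, miR-543-3p, miR-6321, miR-770-5p, miR-484 and miR-6324. miR-92a-3p, from the miR-17-92 cluster that promotes cell division, had 473, 446, 466 and 418 CPM in high responders 1 to 4 and 771, 803, 628 and 1402 in low responders 1 to 4. The groups did not overlap, and the high responders lay close together. The means were 451 ± 24.8 and 901 ± 342 CPM (SD, n = 4 each), and 734 ± 93.1 in low responders 1 to 3. High minus low responders, the log2 difference was -0.998 (SE 0.28), and -0.56 (SE 0.24) without library 4, with unadjusted p = 0.00220 and 0.0327 and adjusted p = 0.358 and 0.996 in edgeR. Its seed family of 5 tested miRNAs, with miR-25-3p, miR-32-5p, miR-363-3p and miR-92b-3p, summed to 1869.5, 2281, 2379 and 2183 CPM in high and 2928, 2532, 2415 and 3359.6 in low responders. The 8 sums did not overlap either, and the log2 difference of the family was -0.37 (SE 0.24, unadjusted p = 0.142 in edgeR). Families were scaled by TMM factors computed on the family sums, so these values are not on the scale of the single miRNAs.

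miR-543-3p, of the imprinted domain, had 862, 879, 903 and 1079 CPM in high responders 1 to 4 and 1670.1, 1276, 1417 and 2109.8 in low responders 1 to 4. These groups did not overlap, with or without low responder library 4. The log2 difference was -0.80 (SE 0.25) with it and -0.51 (SE 0.23) without it. miR-770-5p, whose hairpin lies in Meg3, had 66.9, 69.4, 131 and 94.2 CPM in high and 193, 180.4, 134 and 123 in low responders. Here low responder library 4 was the lowest of its group, and high responder library 3 reached into the low responder range. It differed by -0.80 on the log2 scale (SE 0.29), and -0.77 (SE 0.29) without library 4.

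miR-6321 is a rat miRNA of low abundance. It had 24, 17, 125 and 9 counts in high responders 1 to 4 and 166, 201, 159 and 109 in low responders 1 to 4, or 7.83, 3.07, 20.6 and 2.31 and 25.9, 45.4, 31.1 and 87.3 CPM. On the CPM scale all low responders lay above all high responders, and high responder library 3 was the nearest to them. The log2 difference was -2.44 (SE 0.76), or 5.43-fold lower in high responders, and -1.85 (SE 0.77) without library 4. The amygdala libraries are separate samples, but whether they come from the same rats is not in the labels. They had 12.2, 11.1, 2.15 and 1.18 CPM in high and 28.4, 8.08, 30.4 and 60.8 in low responders. The log2 difference there was -2.37 (SE 0.79, unadjusted p = 0.00767, adjusted p = 0.288 in edgeR). There the groups overlapped. The line difference of miR-6321 was not separable between the regions (interaction -0.07, SE 1.09, unadjusted p = 0.948, and 0.63, SE 1.08, without library 4).

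The last 2 of the 6 rested on few libraries or few counts. miR-484 had 83.2, 43.9, 43.2 and 44.9 CPM in high and 53.2, 373, 55.6 and 81.7 in low responders, where low responder library 2 alone was far above the rest. Its log2 difference was -1.39 (SE 0.61), -1.41 without library 4 and -0.19 without library 2. miR-6324 had only 9, 4, 3 and 3 counts in high and 6, 42, 82 and 6 in low responders, with low responders 2 and 3 holding the higher ones and a log2 difference of -2.79 with and without library 4.

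Of the miRNAs higher in high responders, miR-497-5p had the lowest p among those with a mean of at least 10 CPM. It shares its seed with miR-15 and miR-16, which repress genes of the cell cycle. Its levels were 200.04, 261, 260.1 and 153 CPM in high responders 1 to 4 and 83.5, 166, 170.2 and 55.3 in low responders 1 to 4. The groups overlapped, since high responder library 4 lay below low responders 2 and 3. The log2 difference was 0.87 (SE 0.37, unadjusted p = 0.0302, adjusted p = 0.370 in edgeR), and 0.78 (SE 0.36) without library 4.

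miR-195-5p, from the same cluster, had 635, 877, 1135 and 544 CPM in high and 471, 682, 611 and 163 in low responders, with low responder library 4 the lowest. This gave a log2 difference of 0.73 (SE 0.50), and 0.57 (SE 0.49) without that library. The summed family of 5 tested miRNAs with this seed, scaled on the family sums, differed by 0.45 (SE 0.48), and by 0.18 (SE 0.46) without it. miR-16-5p dominates that sum, and its own levels were 1263, 1734, 2250.4 and 1471 CPM in high and 1583, 1889, 1867 and 558 in low responders. The other 10 higher miRNAs of lowest p had log2 differences of 0.28 to 0.71 and unadjusted p-values of 0.146 or more, and differences of 0.29 to 0.58 without library 4. These were miR-136-5p, miR-3593-5p, miR-362-3p, miR-362-5p, miR-218a-1-3p, miR-144-5p, miR-7a-1-3p, miR-187-3p, miR-124-5p and miR-451-5p. miR-200a-3p, miR-3572 and miR-181b-2-3p were at an unadjusted p under 0.05 in both fits, with log2 differences of 1.04, 1.11 and 1.10, and 1.05, 1.37 and 1.21 without library 4, at levels of at most 10.5 CPM.

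**Figure D3:**
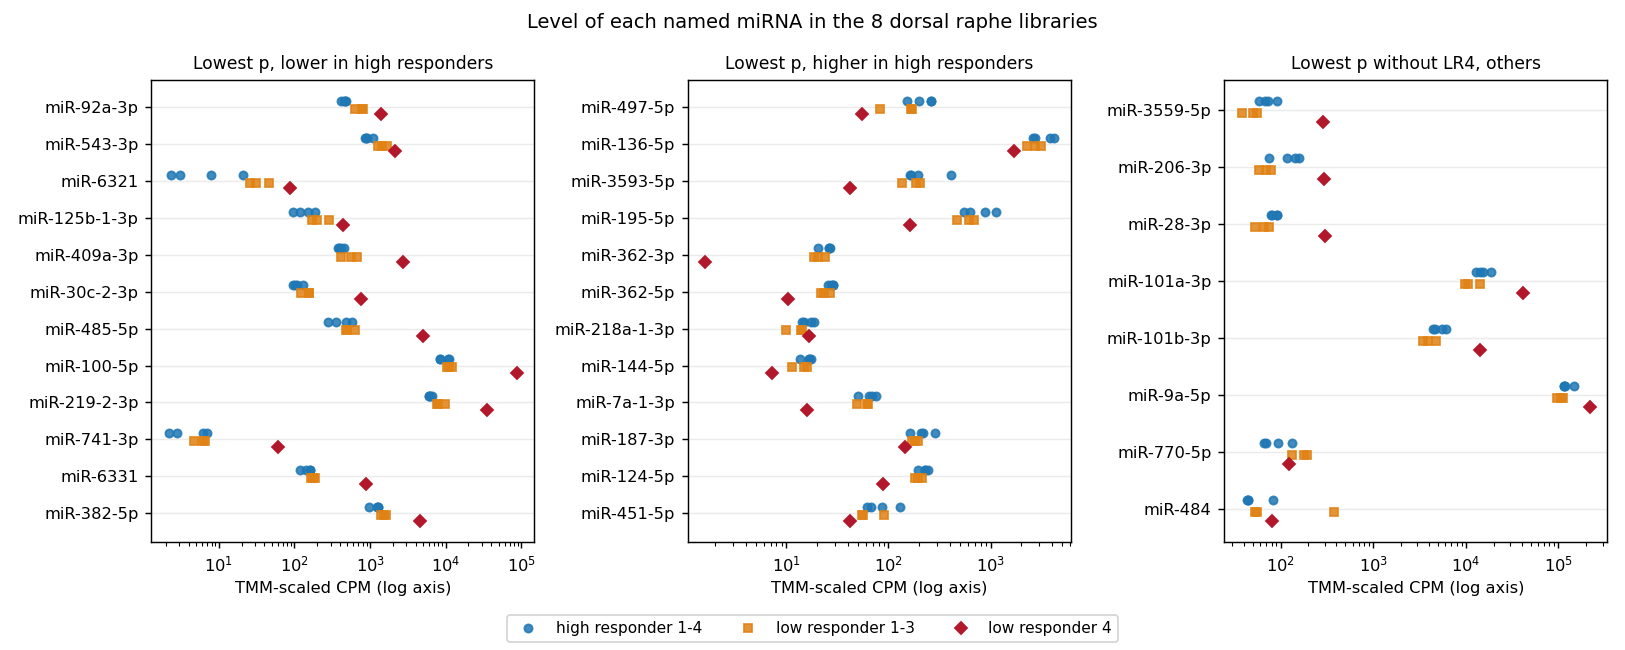
Scaled level (CPM, log axis) of each named miRNA in the 8 dorsal raphe libraries, with high responders 1 to 4 in blue, low responders 1 to 3 as orange squares and low responder library 4 (LR4) as a red diamond. LR4 is the right-most point for 12 of 12 miRNAs in the left panel, and it holds the highest level of the 6 miRNAs from miR-3559-5p to miR-9a-5p in the right panel.

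For 8 other lower miRNAs of lowest p, the difference shrank most of the way to 0 without low responder library 4. miR-485-5p, whose targets include synaptic proteins, had 282, 358, 485 and 579 CPM in high responders 1 to 4 and 623, 477, 490.4 and 4944 in low responders 1 to 4. Its log2 difference was -1.94 (SE 0.64) with library 4 and -0.20 (SE 0.34) without it. miR-100-5p gave -1.66 (SE 0.56) and -0.09 (SE 0.28), with levels of 8519.9, 10658, 8345 and 11003 CPM in high responders. miR-219-2-3p, whose hairpin also gives the oligodendrocyte miRNA miR-219-5p, had 6047, 6187, 6493 and 5997 CPM in high and 7751, 9762, 7948 and 35333 in low responders. All 4 low responders were above all high responders here, but the log2 difference of -1.30 (SE 0.44) became -0.32 (SE 0.31). The differences of miR-30c-2-3p, miR-409a-3p, miR-6331, miR-382-5p and miR-741-3p ran from -1.99 to -0.95 with library 4 and from -0.28 to -0.15 without it.

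miR-125b-1-3p, the passenger arm of the hairpin for the abundant miR-125b-5p, had 95.0, 119, 185 and 152 CPM in high and 283, 173, 196 and 432 in low responders, and high responder library 3 overlapped the low responders. Its log2 difference was -0.97 (SE 0.31), and -0.54 (SE 0.27) without library 4, where the unadjusted p was 0.0619.

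Of the 23 miRNAs at an unadjusted p under 0.05 without low responder library 4, 13 were not so with all libraries, and these were higher in high responders. miR-101a-3p, a repressor of the histone methyltransferase Ezh2, had 12842, 18651, 14187 and 15234 CPM in high responders and 9848, 10660.2, 14085 and 41733 in low responders. Its log2 difference was -0.33 (SE 0.37) with all libraries and 0.53 (SE 0.21, unadjusted p = 0.0224) without library 4. With library totals alone and all libraries it was 0.12. miR-101b-3p, which is nearly identical to it and can share its reads, gave -0.35 and 0.49. Summed as a seed family they gave -0.13 (SE 0.33), and 0.48 (SE 0.19, unadjusted p = 0.020, adjusted p = 0.983 in edgeR) without library 4. The family has TMM factors of its own, so the smaller difference with all libraries does not show an effect of summing.

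miR-9a-5p, the most abundant miRNA of these libraries, which acts in neural progenitors and neurons, had 115177, 148652, 116042 and 117214 CPM in high responders 1 to 4. Low responders 1 to 4 had 95542, 107000.2, 110922 and 219588 CPM. Low responders 1 to 3 all lay below the high responders, and library 4 lay above them. Its log2 difference was -0.10 (SE 0.25), and 0.38 (SE 0.16) without library 4. miR-206-3p, which is best known from skeletal muscle, had 116, 142, 157 and 75.7 CPM in high and 68.9, 58.1, 78.3 and 291 in low responders. Its difference was 0.00 (SE 0.47), and 0.98 (SE 0.37) without library 4. miR-3559-5p and miR-28-3p went from -0.54 and -0.54 to 0.74 and 0.51.

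Counting libraries without a model, 27 of 639 miRNAs (4.23%) had high and low responder libraries that did not overlap, 23 lower and 4 higher in high responders. Among the lower were 7 of the 87 tested miRNAs of the imprinted domain: miR-370-3p, miR-433-3p, miR-493-5p, miR-323-3p, miR-382-3p, miR-382-5p and miR-543-3p. The others included both arms of miR-423, miR-7b, miR-92a-3p and miR-6321. Without low responder library 4 the count was 72 (11.3%), 58 lower and 14 higher, with 16 miRNAs of the imprinted domain among the lower ones. All 27 were in both counts, as the smaller group can only overlap less.

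The miRNAs of the imprinted domain on chromosome 6 mostly had lower levels in high responders. The domain encodes maternally expressed miRNAs, many of them neuronal, in a cluster antisense to Rtl1 and a cluster from miR-379 to miR-410. Of its 87 tested miRNAs, 65 had a negative log2 difference, and 63 without low responder library 4. Over all miRNAs tested, 275 of 639 had a positive difference, and 402 of 663 without that library. None of the 87 was called, and 19 (21.8%) were lower at an unadjusted p under 0.05, beside 10.3% of all miRNAs. The median was -0.24, and -0.12 without library 4, against -0.06 and 0.09 over all miRNAs tested. By cluster, 6 of 22 antisense to Rtl1 (median -0.32, and -0.13 without library 4) and 13 of 65 from miR-379 to miR-410 (median -0.21, and -0.11) were lower at an unadjusted p under 0.05. With library totals alone and all libraries these medians were -0.13 and -0.03. Without library 4 only miR-770-5p and miR-543-3p remained so. miR-127-3p, the most abundant of them, had 34457, 39643, 32768 and 44773 CPM in high and 38232, 39193, 47258 and 150428 in low responders. Its difference of -0.86 (SE 0.38) became -0.00 (SE 0.23), so the excess of library 4 made up that value.

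No member of a list of 8 miRNAs linked to serotonin or stress signalling was at an unadjusted p under 0.05. All 8 had a small positive log2 difference, from 0.14 to 0.38 with a median of 0.23, 0.16 without low responder library 4 and 0.36 with library totals alone. Over all miRNAs tested, 275 of 639 were positive with a median of -0.06, and 402 of 663 with a median of 0.09 without that library. Library totals alone also moved the median of all miRNAs up. The list holds miR-135a-5p and miR-135b-5p, regulators of the serotonin transporter and the serotonin 1A receptor, and miR-16-5p, another regulator of the transporter. It also holds miR-34a-5p, miR-34c-5p, miR-96-5p, miR-18a-5p, a regulator of the glucocorticoid receptor, and miR-124-3p. miR-135a-5p had 3165, 4292, 3573 and 4547 CPM in high and 3189, 3622, 4257 and 1656 in low responders, and low responder library 4 was the lowest of the 8. The level of miR-124-3p was 9477, 12461, 20274 and 10815 CPM in high and 13258, 13834, 12299 and 5137 in low responders, with the same library lowest. Summed, the list held 17767 to 31189.6 CPM in high responders, 22803 to 23693 in low responders 1 to 3 and 12186 in library 4. The 7 miRNAs hosted by Htr2c, which encodes a serotonin receptor, had a median of -0.22 with 0 at an unadjusted p under 0.05, and the median was positive without library 4 (0.20) and with library totals alone (0.10).

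Markers of neurons were present in all 8 libraries. Of 28 tested neuronal miRNAs, 4 (14.3%) were lower at an unadjusted p under 0.05, near the 10.3% of all miRNAs. Their median was -0.06, as over all miRNAs, and was positive without low responder library 4 (0.08) and with library totals alone (0.13). Their summed level was 188997 to 237203 CPM in high responders, 188283 to 208159 in low responders 1 to 3 and 378411 in library 4. All miRNAs together also summed higher in library 4, to 1678980 CPM against 923818 to 1002702 in low responders 1 to 3. The neuronal sum there thus does not show a larger neuronal share. Among the neuronal miRNAs, miR-7a-5p had 13304, 14784, 15003 and 18147 CPM in high and 17618, 19685, 18144 and 68749 in low responders.

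Oligodendrocyte miRNAs were lower in high responders on average. The 5 of the list, from the miR-219 and miR-338 hairpins that promote myelination, summed to 10273 to 12094 CPM in high responders and 13941 to 16370 in low responders 1 to 3, ranges that did not overlap, and 40553 in library 4. The median log2 difference was -0.36, -0.28 without library 4 and -0.19 with library totals alone. Of the 5, 1 was lower at an unadjusted p under 0.05, beside 10.3% of all miRNAs, and 0 without library 4. miR-338-3p had 1378, 2048, 1960.0 and 2182.39 CPM in high and 2151, 2186, 3163 and 2140.2 in low responders. The part of cell composition in the lower miRNAs named above was not tested.

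Of the other cell type lists, the astrocyte list (miR-29, 7 tested) had 0 at an unadjusted p under 0.05 and a median of 0.07, and -0.03 without library 4. The vascular list had 1 of 7, beside 11% of all miRNAs (median 0.14, and 0.08 without library 4). That of microglia and leukocytes had 1 of 10, with a median of -0.10, -0.02 without library 4 and 0.10 with library totals alone. In each of these 2 the member was lower in high responders and highest in low responder library 4, namely miR-143-3p (105324 CPM in library 4 and 20226, 20673 and 24126 in its mates) and miR-146b-5p (12372 and 2261, 2358 and 2547). Their log2 differences of -0.99 and -1.08 became 0.12 and 0.08 without that library. The 4 erythrocyte miRNAs, a sign of blood in the tissue, were all higher in high responders on average, with a median of 0.42, and 0.40 without library 4, and 0 at an unadjusted p under 0.05. They summed to 145 to 246 CPM in high responders, 142 to 167 in low responders 1 to 3 and 86.5 in library 4.

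Markers of other tissues were present as well. Their counts at an unadjusted p under 0.05 stand beside 10.3% lower and 0.626% higher over all miRNAs. Their sums in library 4 stand beside the raised sum of all miRNAs there, 1678980 CPM. The choroid plexus and ciliated list (12 tested, 0 at an unadjusted p under 0.05, median 0.18, and 0.33 without library 4) summed to 4077 to 7141 CPM in high and 3820.2 to 6225 in low responders 1 to 3, and to 8236 in library 4. The muscle list (10 tested of 14) had 1 lower and a median of -0.05, -0.03 without library 4 and 0.12 with library totals alone, and summed to 1847 to 2239 CPM in high responders, 2128 to 2694 in low responders 1 to 3 and 5261 in library 4. The epithelial list of the miR-200 family (8 tested of 9) had 1 higher, miR-200a-3p, and a median of 0.32, and 0.46 without library 4, at a sum of at most 35.6 CPM. The sensory cluster of miR-183, miR-96 and miR-182 had 1 of 5 lower, miR-183-5p, and a median of 0.05, and 0 lower and a median of 0.31 without library 4. The Hox list (6 tested of 11) had 2 lower, miR-10a-5p and miR-10b-5p, and a median of 0.04, and 0 lower and a median of 0.35 without library 4. Its sum was 389 to 480 CPM in high responders, 423 to 433 in low responders 1 to 3 and 3935 in library 4. In at least 1 dorsal raphe library, 4 muscle, 6 Hox, 3 epithelial and 2 choroid plexus markers were at 0.

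**Figure D4:**
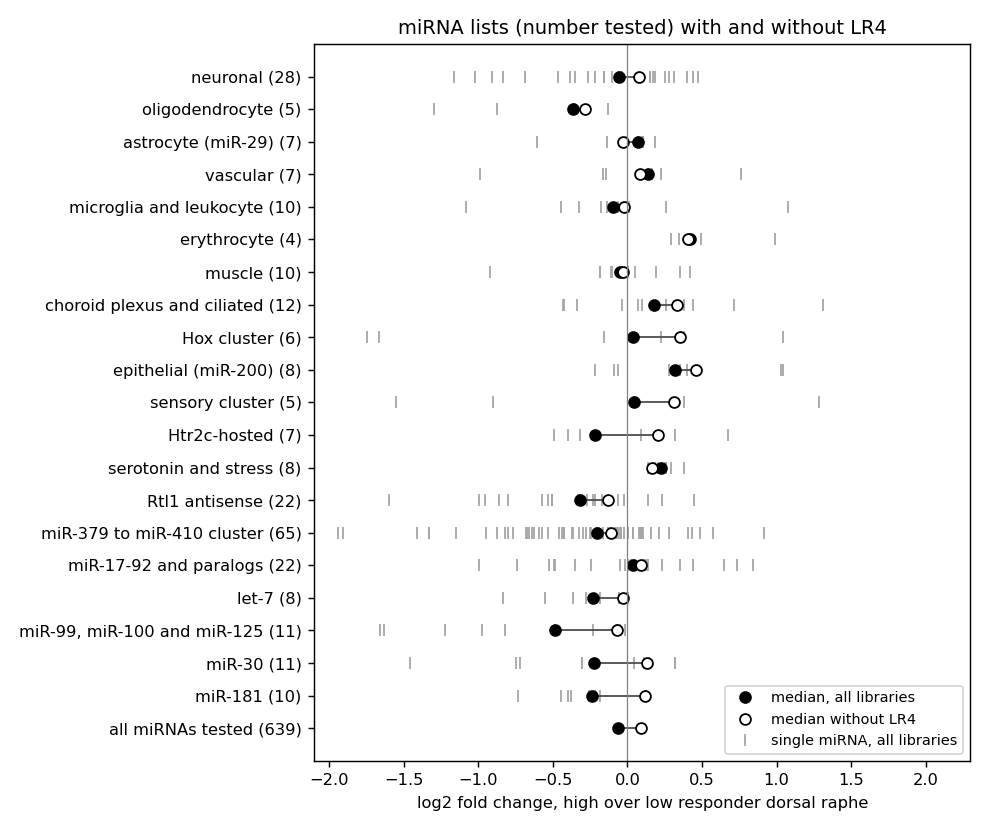
The log2 difference, high over low responder dorsal raphe, for each member of the 20 lists (ticks, all libraries), with the list median with all libraries (filled circle) and without low responder library 4 (LR4, open circle). The bottom line gives the medians of all miRNAs tested, -0.06 and 0.09, and the list of miR-99, miR-100 and miR-125 moves from -0.48 to -0.07.

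Among the large miRNA families, that of miR-99, miR-100 and miR-125 had 5 of 11 members (45.5%) at an unadjusted p under 0.05, all lower in high responders, beside 10.3% of all miRNAs. All 11 had a negative log2 difference with all libraries, while 4 were positive and 0 were at an unadjusted p under 0.05 without low responder library 4. The counts of the other families were near that share. let-7 (1 of 8 lower) had a median of -0.23, miR-30 (1 of 11 lower) -0.22 and miR-181 (1 of 10 lower and 1 higher) -0.24. These became -0.03, 0.13 and 0.12 without library 4, and 0.01, 0.15 and 0.04 with library totals alone. In the list of miR-17-92 and its paralogs 2 of 22 were lower and the median was 0.04, and 0.09 without library 4. Beside miR-92a-3p the other was miR-106b-3p, whose difference of -0.74 became -0.03 without library 4.

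Grouped by seed, 0 of 484 families were called, and 33 (6.82%) were at an unadjusted p under 0.05, 32 lower and 1 higher. Without low responder library 4 there were 6 lower and 10 higher among 502. The 5 families of lowest p had a single member each, and these were miR-6324, miR-6321, miR-125b-1-3p, miR-409a-3p and miR-485-5p. Family levels are scaled by TMM factors computed on the family sums, so they do not equal the sums of the single miRNA levels given above. Among families with several tested members, that of miR-99b-5p and miR-100-5p had 11412, 14643, 12164 and 14339.9 CPM in high and 14553, 13401, 14823 and 97026 in low responders. Its log2 difference was -1.41 (SE 0.53), and -0.10 (SE 0.28) without library 4. The abundant miR-99a-5p, of the same family, had no sequence entry and is missing from this sum. Its own level in library 4 was inside the range of its mates.

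The ratio of the arms of a hairpin did not differ between the lines at an adjusted p of 0.05 in limma, in 0 of 222 hairpins, with 2 (0.901%) at an unadjusted p under 0.05. For miR-493 the log2 ratio of 5p to 3p was 0.38, 0.31, 0.70 and 0.27 in high responders 1 to 4 and 1.07, 1.22, 0.70 and 1.38 in low responders 1 to 4. These overlapped at high responder library 3 and low responder library 3, with a difference of -0.68 (SE 0.27), and -0.58 (SE 0.27) without library 4. For miR-383 the difference was -0.85 (SE 0.39), and -0.42 (SE 0.27) without it. The next 3 hairpins by p were miR-32, miR-196a and miR-135b, with differences of 1.00, -1.35 and 1.06, and of 0.51, -0.39 and 0.53 without library 4.

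Whether the line difference in the dorsal raphe departed from that in the amygdala was tested as an interaction. With edgeR 0 of 639 miRNAs were called (81 at an unadjusted p under 0.05), and with DESeq2 22 were, among them miR-370-3p (adjusted p = 0.000573), miR-125b-1-3p (0.00440), miR-543-3p (0.0486) and miR-497-5p (0.0499). The lowest adjusted p was that of miR-370-3p, of the imprinted domain, at 0.0514 in edgeR. In the dorsal raphe it had 489, 555, 533 and 656 CPM in high and 769, 716, 819.9 and 2152 in low responders, which did not overlap. The amygdala had 3092, 1761, 1345 and 1219 CPM in high and 726, 537, 566 and 445 in low responders, where the order of the lines was the opposite and the groups did not overlap either. The log2 difference was -0.995 (SE 0.37) in the dorsal raphe, -0.33 (SE 0.29) without library 4, and 1.71 (SE 0.38) in the amygdala. Without library 4 its interaction was -2.01 (SE 0.39, adjusted p = 0.0709 in edgeR).

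miR-125b-1-3p showed the same order. It differed by -0.97 in the dorsal raphe and 0.92 (SE 0.31) in the amygdala, where high responders had 251, 172, 256 and 199 CPM and low responders 136, 97.6, 118 and 111. Its interaction was -1.90 (SE 0.44, unadjusted p = 0.000442, adjusted p = 0.141 in edgeR), and -1.44 (adjusted p = 0.276) without library 4. miR-770-5p, miR-543-3p and miR-497-5p had interactions of -1.03, -1.08 and 1.495 with adjusted p-values of 0.204 to 0.292 in edgeR. These became -0.98, -0.76 and 1.43 without library 4, with adjusted p-values of 0.362 to 0.461.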

How the data were processed

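Small RNA from the dorsal raphe and amygdala of both lines was sequenced. The labels' protocols give a miRNeasy kit for the RNA and a Pippin size selection of the libraries. Per the submitters' processing notes, cutadapt 1.3.1, Bowtie2 (no version) and bedtools 2.14.2 were used. The sources used here do not give their settings, the build, the annotation or how reads with several matches were counted. Reads of near-identical miRNAs may therefore be split or shared. miR-129-1-3p and miR-129-2-3p had identical levels in every dorsal raphe library, so the same reads appear to be counted for both. Both are counted among the miRNAs tested and in the neuronal list. The deposited values are whole-number counts per mature miRNA for 722 miRNAs, used as deposited.

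Counts were filtered with filterByExpr of edgeR 4.0.16 (minimum count 10, minimum total 15) in R 4.3.3, which dropped 83 miRNAs with at most 0.0166% of a library's counts. Levels are TMM-scaled CPM, and log2 levels use a prior count of 2. The line difference, high over low responder, was tested with edgeR's robust quasi-likelihood test fitting 4 group means over 16 libraries. Benjamini-Hochberg adjustment ran over every miRNA tested, and 0.05 was the threshold. The biological coefficient of variation was 0.426. Counts were summed over miRNAs with the same seed for families, and miRNAs without a sequence entry were left out. TMM factors were computed anew on these sums, so family levels and log2 differences are not on the scale of the single miRNAs. Arm ratios used a pseudocount of 0.5 and limma 3.58.1. DESeq2 1.42.0, limma-voom, other scalings and filters, and leaving out each library were alternatives. The scripts were tested on simulated data.

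Named miRNAs are the 12 higher and 12 lower of lowest p that averaged 10 CPM or more, the 6 and 6 of lowest p without low responder library 4, and the 8 furthest above and 8 furthest below their mates in that library that averaged 100 CPM or more. Up to 3 of each list by level, the 10 most abundant miRNAs, and the 5 hairpins and 5 families of lowest p were added. The miRNAs that kept an unadjusted p under 0.05 without that library, those that did not overlap, miR-16-5p, miR-106b-3p and miR-370-3p were chosen after their values were seen. The members and the 20 lists were chosen with earlier results of these data known. miRNA sequences came from RefSeq (GRCr8), with 569 of the 639 tested (89.0%) matched by name.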

Additional observations from a re-analysis of the deposited data

Results flagged for a closer look

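In the low responder dorsal raphe, library 4 lay far from the other 3 in its distance from its group mates, with a gap of 0.957 of the group's whole range, and in the number of hairpins with a shifted arm ratio, with a gap of 0.938. These gaps exceed Dixon's 95% critical value for 4 libraries, as do all below. Chance flags about 1 in 20 groups of independent values, a rate that does not apply to these picks. Library 4 was already known to stand apart, and the miRNAs were picked by their p in these data. Each distance or hairpin value is also taken against the other libraries of the group, so the 4 are not independent. On the log2 scale the same library was set off for miR-100-5p (0.927), miR-6331 (0.922), miR-485-5p (0.886), miR-741-3p (0.885), miR-30c-2-3p (0.869), miR-382-5p (0.864) and miR-219-2-3p (0.848), where it was highest, and for miR-362-3p (0.903), where it was lowest. Among high responders, library 1 was set off for miR-484 (0.940, highest) and miR-382-5p (0.919, lowest), library 2 for miR-9a-5p (0.931, highest) and library 3 for miR-362-3p (0.907, lowest). Over all 639 miRNAs, 146 (22.8%) were flagged among low responders, 140 of them for library 4, and 41 (6.42%) among high responders.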

How the results depend on the processing

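No miRNA passed the threshold under any alternative except limma-voom with quality weights for each library, which called 3, all lower in high responders. These were miR-6321 (log2 difference -2.92, adjusted p = 0.00967), miR-770-5p (-1.02, adjusted p = 0.00967) and miR-92a-3p (-0.74, adjusted p = 0.0108). The weight of low responder library 4 was 0.127 there. The count at an unadjusted p under 0.05, 70 in edgeR with all libraries, was 22 with library totals alone, 31 with a mean of at least 10 CPM, 30 with limma-voom, 21 with the dorsal raphe alone, 24 without low responder library 4 and high responder amygdala library 1, and 23 to 76 with each library left out in turn. The 58 of the dorsal raphe alone without library 4 were 27 higher and 31 lower. It fell to 27 without high responder library 2, 39 without library 3, 41 without library 1 and 43 without library 4 of that line. The miRNAs without overlap numbered 14 at a mean of at least 10 CPM and 72 without low responder library 4. The interaction calls were 22 with DESeq2 and 0 to 1 with each library left out, the 1 being miR-370-3p (adjusted p = 0.0482) without low responder library 1.

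Same-numbered high and low responder libraries did not deviate together (correlations across miRNAs of -0.14, 0.03, 0.10 and -0.12). This check could hardly show a pairing, since low responder library 4 dominates its group. The deviations of low responder libraries 1 to 3 had Spearman correlations of -0.767, -0.761 and -0.810 with those of library 4. No pairing by number was assumed. With the replicate number as a block the count was 42 within regions and 10 in the dorsal raphe alone. With the block in the dorsal raphe alone the log2 differences were 0.14 for miR-3559-5p, 0.071 for miR-101a-3p, 0.031 for miR-101b-3p and 0.089 for miR-9a-5p, and with the block within regions 0.018 for miR-3559-5p, all reversed.

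Of the 32 miRNAs followed, 26 kept their direction under all alternatives and 6 reversed, the cause of which was not tested. With quality weights, in the dorsal raphe alone without library 4 and without the 2 shallowest libraries, in that order, miR-3559-5p was 0.69, 0.72 and 0.70, miR-28-3p 0.40, 0.49 and 0.47, miR-101a-3p 0.50, 0.51 and 0.49, miR-101b-3p 0.43, 0.46 and 0.44, and miR-9a-5p 0.31, 0.36 and 0.34. With library totals alone miR-101a-3p was 0.12, miR-101b-3p 0.095 and miR-9a-5p 0.24. miR-9a-5p was also 0.016 with DESeq2 size factors in edgeR, 0.016 with DESeq2 and 0.070 with a mean of at least 10 CPM. With each library left out in turn the values ran from -0.74 to 0.74 for miR-3559-5p, -0.18 to 0.98 for miR-206-3p, -0.72 to 0.51 for miR-28-3p, -0.47 to 0.53 for miR-101a-3p, -0.49 to 0.49 for miR-101b-3p and -0.18 to 0.38 for miR-9a-5p. Of the 20 list medians, 9 moved by over 1 SD under another scaling and 7 without low responder library 4. With library totals alone 7 changed sign (neuronal, microglia and leukocyte, muscle, Htr2c-hosted, let-7, miR-30 and miR-181), and without that library 5 did (neuronal, astrocyte, Htr2c-hosted, miR-30 and miR-181). Differences in miRNAs of a few CPM are limited by depth, since 3 counts stood for up to 1.43 CPM.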

Other observations

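The 10 most abundant miRNAs made up 41.3% to 45.3% of the counts of each dorsal raphe library. After miR-9a-5p, the ranking held miR-127-3p, miR-26a-5p, miR-181a-5p, miR-99a-5p, miR-143-3p, miR-125b-5p, let-7i-5p, let-7f-5p and miR-126a-3p. miR-26a-5p, which is broadly expressed, had 44194, 47645, 64645 and 41519 CPM in high responders 1 to 4 and 56905, 54949.8, 54132 and 32121 in low responders 1 to 4, a log2 difference of -0.00 (SE 0.29), and -0.03 without library 4. miR-181a-5p had 27779, 35982, 31004 and 34408 and 35331, 37399, 36171 and 45522 CPM. Its 5 high levels were those of low responders and of high responder library 2, and the difference was -0.26 (SE 0.29), and -0.04 without library 4. The endothelial miR-126a-3p had 20366, 33926, 23107 and 31889 CPM in high and 24025, 24416, 32536 and 12518 in low responders, with library 4 the lowest of the 8. let-7f-5p had 18853, 19229, 22088 and 16665 and 20919, 21972, 20862 and 73003 CPM, with library 4 the highest.

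miR-484, whose difference in the dorsal raphe came from 1 library, had 46.3, 48.0, 41.7 and 33.9 CPM in the 4 high responder and 108, 120.3, 54.4 and 358 in the 4 low responder amygdala libraries. These did not overlap, and the log2 difference there was -1.92 (SE 0.62, unadjusted p = 0.00614, adjusted p = 0.288 in edgeR). The interaction of line and region was 0.53 (SE 0.84), and 0.59 without low responder dorsal raphe library 4.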
